A study of Homo sapiens with 12 samples.

Results

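The 10 genes described here are the IL-6 family and colony-stimulating cytokines together with receptors and a feedback regulator of the same pathway: the ligands IL6, LIF, IL11, CSF1, CSF2 and CSF3, the receptor chains IL6R, IL6ST and OSMR, and SOCS3. They were chosen by gene name, with earlier results of these data known, from the 58735 genes of the expression table, and each name matched 1 gene. The table holds poly(A) RNA-seq of NCM460, a human colonic epithelial cell line, as FPKM, which is the number of sequenced fragments scaled for gene length and library depth. Each of the 4 groups had 3 libraries, 12 in all. Wild-type cells received medium alone, TNF-α, or TNF-α with 5-OH-TMT, a trimethylated tryptamine that the labels call Bufotenidine, and the fourth group received TNF-α with HTRA2, a mitochondrial serine protease, knocked down by siRNA. The comparisons ask how TNF-α moved these transcripts and whether 5-OH-TMT or loss of HTRA2 moved them further. The TNF-α dose, the treatment time and the siRNA or siRNAs of the sequenced knockdown are not given in the sources used here. The study describes its knockdown comparison as one against control siRNA, whereas the labels give the TNF-α libraries as wild type and name no siRNA. Where those cells were not transfected, siRNA transfection as such and the loss of HTRA2 cannot be told apart. Nothing states that the 3 libraries of a group came from separate cultures, and p-values then measure only the spread between these libraries, which may be technical.

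Cytokines of the IL-6 family act through receptor complexes that share the signal-transducing chain gp130, encoded by IL6ST, and they activate JAK kinases and the transcription factor STAT3. IL-6 and IL-11 first bind a ligand-specific chain, LIF pairs gp130 with LIFR, and oncostatin M pairs it with OSMR, while SOCS3 is induced by STAT3 and binds gp130 to end the signal. The colony-stimulating factors act mostly on myeloid cells: CSF1 (M-CSF) maintains macrophages, CSF2 (GM-CSF) activates macrophages and granulocytes, and CSF3 (G-CSF) drives the output of neutrophils. In the gut, epithelial cells are among the sources of these factors.

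HTRA2 itself read 13.3 to 17.2 FPKM in the medium, TNF-α and 5-OH-TMT libraries and 7.44, 7.18 and 7.22 FPKM in the 3 knockdown libraries, so the knockdown was incomplete, with 0.502 times the mean of the TNF-α libraries. Between 31008429 and 37624399 reads were counted on genes per library. The share of reads on mitochondrial genes was 2.95% in the second knockdown library and 3.69% to 4.68% in the other libraries. That library also stood apart in its counts, where chi-squared divided by its degrees of freedom was 31.4 and 40.8 against the other knockdown libraries and 6.87 between those, and results of the knockdown are therefore given without it as well. All 6 epithelial markers examined (EPCAM, CDH1, KRT8, KRT18, KRT19 and CLDN4) were expressed, with a summed FPKM of 2160 to 2744 per library, whereas the 7 markers of colonic identity summed to at most 0.0820 FPKM, and CDX2, LGR5 and CA1 had no read in any library. Of the 6 leukocyte markers, CD14 had 4 to 50 reads in a library, CD68 at most 6, PTPRC and LYZ at most 4, CD163 at most 3 and AIF1 0. CD14 was higher in the knockdown than with TNF-α, but its knockdown libraries overlapped those of medium (14 to 33 reads). In bulk RNA of this kind, fewer cells with a transcript and less of it per cell cannot be told apart.

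The mRNAs of these cytokines are known for AU-rich elements in their 3′ untranslated regions, to which proteins that destabilise or stabilise mRNA bind. Each ligand transcript held at least 1 match to the core TATTTAT, and whether a match acts as such an element was not tested. The core TATTTAT, searched on the transcript strand, occurred 3 times in the 429 bases of the IL6 3′ UTR, 5 times in 3204 bases of LIF, 7 times in 1618 bases of IL11, once in 2154 bases of CSF1, 7 times in 318 bases of CSF2 and 3 times in 854 bases of CSF3. IL6ST held 1 core, OSMR 3, SOCS3 2 and IL6R 0. At least 1 core was found in the 3′ UTR of 28.7% of 18209 genes with a 3′ UTR of at least 50 bases, whose lengths were not matched to these genes. The 30-base stretch with the most cores is shown for each ligand, 5′ to 3′ on the transcript strand in GRCh38 with the cores in capitals, so that the 6 cytokine transcripts can be compared. They lie at chr7:22731925-22731954 (IL6, plus strand), chr22:30242563-30242592 (LIF, minus), chr19:55365943-55365972 (IL11, minus), chr1:109929054-109929083 (CSF1, plus), chr5:132076074-132076103 (CSF2, plus) and chr17:40016979-40017008 (CSF3, plus).
IL6: aagaaaTATTTATattgTATTTATataatg
LIF: ttcTATTTATtatgatatccTATTTATatt
IL11: ccagatctTATTTATTTATTTATttcagta
CSF1: ccatgctgccacTATTTATtgtgagccctg
CSF2: ttaaaaTATTTATTTATTTATTTATttaag
CSF3: atgTATTTATctctatttaaTATTTATgtc
The windows differ in how tightly the cores stand: CSF2 and IL11 hold overlapping runs of 4 and 3 cores, and CSF1 a single core.

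Promoter sequence from RefSeq (GRCh38.p14) was matched for 7 of the 10 genes, with 8 start sites. No promoter entry was available for LIF, CSF1 and CSF3, which were not searched. The 250 bases upstream of each start were searched on both strands for 5 motifs. The NF-κB form GGG, any 2 bases and TTTCC was present once, in IL6, 64 to 73 bases upstream of the start, and in 1.73% of 35116 promoters. The C/EBP form TTGCNNAA, in 9.05% of promoters, was found in IL6 and OSMR, and the AP-1 form TGANTCA, in 6.57%, in IL11. The looser NF-κB form GGGNNNTCC, in 18.4% of promoters, matched in OSMR, IL6R, IL6ST, CSF2 and 1 of the 2 SOCS3 promoters, and the STAT form TTCNNNGAA, in 6.57%, matched in CSF2. IL6 is shown for its NF-κB match, IL11 for its AP-1 match and OSMR as the gene whose looser NF-κB match lies on the coding strand, while the matches of that form in the other 4 genes lie on the opposite strand. The stretches are chr7:22727027-22727146 (IL6, plus strand, ahead of the RefSeq start and outside annotated exons, though within the gene span given for IL6 below), chr19:55370464-55370583 (IL11, minus strand, read in the direction of transcription) and, for OSMR, whose match lies within an annotated exon, chr5:38845876-38845905 (plus strand), with motif matches in capitals.
IL6: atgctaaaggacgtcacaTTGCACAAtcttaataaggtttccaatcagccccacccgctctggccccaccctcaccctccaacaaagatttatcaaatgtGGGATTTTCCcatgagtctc
IL11: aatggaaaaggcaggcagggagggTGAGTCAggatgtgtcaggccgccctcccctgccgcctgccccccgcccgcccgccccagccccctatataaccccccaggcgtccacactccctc
OSMR: gactgaagggaGGGAATTCCtgtgggtccc
A match is a description of the letters, and binding was not measured.

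In medium, the receptor genes and SOCS3 stood above most of the ligands. Per gene length, OSMR had a mean of 24.2 FPKM, SOCS3 11.2, IL6ST 7.15, LIF 5.43, IL6R 2.85, CSF1 1.59, IL11 0.597, CSF2 0.438, IL6 0.119 and CSF3 0.0186. With TNF-α the order was OSMR at 33.6 FPKM, SOCS3 15.2, LIF 14.5, IL6ST 8.52, CSF1 4.41, IL6R 2.62, CSF2 2.43, IL11 1.24, IL6 1.08 and CSF3 0.363. In that order the libraries of SOCS3 and LIF, of IL6R and CSF2, of CSF2 and IL11 and of IL11 and IL6 overlapped, so these neighbours do not differ beyond their spread. All 10 genes passed the filter for testing, a mean of at least 0.1 FPKM over the 12 libraries, although CSF3 did so only through the groups with TNF-α.

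**Figure D1:**
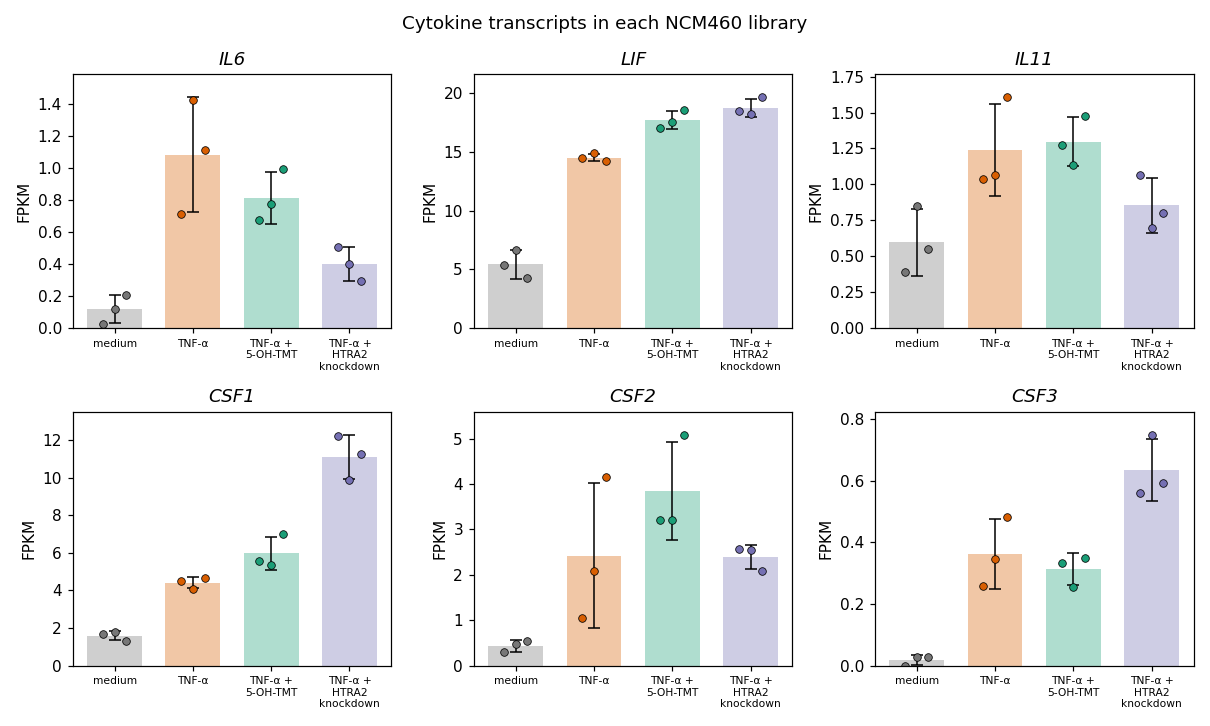
FPKM of the 6 cytokine genes in NCM460 cells, with 1 point per library (3 per group), bars at the mean and error bars of 1 SD, each panel on its own linear axis from 0. All 6 panels have their 3 medium libraries below every library of the 3 groups with TNF-α, except IL11, where the highest medium library (0.852) lies above 2 of the knockdown libraries.

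TNF-α raised 7 of the 10 genes at an adjusted p under 0.05 and lowered none, against 4.1% of the 18079 genes tested, or 3.22% counting only those that rose. Over the 10 the median log2 change was 1.20, and over all genes tested it was −0.0020. Of the 10, 8 had every TNF-α library above every medium library, which 11.1% of all genes had, and 5 passed the threshold of the study's methods, at least 2-fold with an unadjusted p of at most 0.05, which 1.76% of all genes passed in that direction. Those 5 were the ligands IL6, LIF, CSF1, CSF2 and CSF3, and the other 2 that rose were OSMR and SOCS3. The 10 genes were chosen with earlier results of these data known. Their shares beside those of all genes are therefore a description and no independent test. CSF3 is in each of these counts and in the median, although it passed the filter only through the groups where it is high. Its part in them is therefore no support, and 6 of the other 9 genes were called.

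IL6, the pleiotropic inflammatory cytokine (ENSG00000136244, chr7:22725884-22732002), had 2, 8 and 14 reads in the medium libraries, or 0.0279, 0.121 and 0.207 FPKM. With TNF-α it had 54, 92 and 86 reads, or 0.711, 1.43 and 1.11 FPKM. The lowest TNF-α library was above the highest medium library, and the means of 0.119 ± 0.0896 and 1.08 ± 0.358 FPKM (SD, n = 3) differed 9.15-fold. The log2 fold change on the log2(FPKM + 0.1) scale was 2.48 (SE 0.33, adjusted p = 0.00081), with 32 of the tested genes above it. At these low levels its size followed the pseudocount, from 0.89 at a pseudocount of 1 to 3.36 at 0.01 and 3.40 in voom on the reads.

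LIF, leukaemia inhibitory factor (ENSG00000128342, chr22:30240447-30246851), was the most abundant of the ligands. It read 5.37, 6.67 and 4.25 FPKM in medium and 14.4, 14.9 and 14.2 FPKM with TNF-α, and rose by 1.43 on the log2 scale (SE 0.12, adjusted p = 2.3e-05). The TNF-α libraries lay close together, with a coefficient of variation of 2.26%, near the 2.23% that counting error alone gives. LIF overlaps AC004264.1 on the opposite strand by 647 bases, and the strand setting of the counting is not given in the sources used here; that gene had at most 197 reads in a library where LIF had at least 551.

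IL11, which signals through gp130 with its own receptor chain (ENSG00000095752, chr19:55364389-55370463), read 0.389, 0.852 and 0.550 FPKM in medium and 1.04, 1.07 and 1.61 FPKM with TNF-α. The groups did not overlap, but the log2 fold change of 0.97 (SE 0.25) had an adjusted p of 0.0524. It passed in voom (adjusted p = 0.0356) and without medium library 2 (adjusted p = 0.0162), and over all alternatives its adjusted p ran from 0.0162 to 0.211.

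CSF1, the macrophage growth factor (ENSG00000184371, chr1:109910242-109930992), read 1.70, 1.77 and 1.31 FPKM in medium and 4.51, 4.09 and 4.63 FPKM with TNF-α, and rose by 1.42 on the log2 scale (SE 0.13, adjusted p = 4.9e-05). CSF2, which codes for GM-CSF (ENSG00000164400, chr5:132073790-132076170), had 8, 12 and 14 reads in medium, or 0.293, 0.475 and 0.545 FPKM, and 30, 51 and 122 reads with TNF-α, or 1.04, 2.08 and 4.16 FPKM. Its log2 fold change was 2.06 (SE 0.38, adjusted p = 0.0076). The 3 TNF-α libraries of CSF2 had the largest coefficient of variation of the 10 genes in that group, 65.5% where counting error gives 12.2%, and in a fit to the medium and TNF-α libraries alone the call was lost (adjusted p = 0.110, against 0.00098 to 0.0404 in the other alternatives).

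CSF3, the granulocyte growth factor (ENSG00000108342, chr17:40015361-40017813), had 0, 2 and 2 reads in medium and 21, 24 and 40 reads with TNF-α. Every medium library was under a floor set at 3 reads, and the TNF-α mean (of 0.258, 0.347 and 0.483 FPKM) was 8.88 times that floor. The ratio is no lower bound on the fold, as neither the spread of the TNF-α libraries nor the error of the medium counts enters it. Its fitted log2 change depended on the pseudocount, from 0.42 at 1 to 3.90 at 0.01.

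Of the receptor chains, OSMR, the oncostatin M receptor (ENSG00000145623, chr5:38845858-38945596), read 26.3, 22.2 and 24.2 FPKM in medium and 34.4, 34.2 and 32.2 FPKM with TNF-α. The groups did not overlap and the log2 fold change was 0.47 (SE 0.07, adjusted p = 0.0026). RICTOR overlaps OSMR on the opposite strand by 7678 bases and had at most 2311 reads in a library, where OSMR had at least 5110. IL6ST (ENSG00000134352, chr5:55935095-55994993) read 7.14, 5.67 and 8.63 FPKM in medium and 8.61, 8.17 and 8.79 FPKM with TNF-α, with overlapping groups and an adjusted p of 0.377. IL6R, the ligand-binding chain for IL-6 (ENSG00000160712, chr1:154405193-154469450), read 2.86, 2.58 and 3.11 FPKM in medium and 2.40, 2.77 and 2.70 FPKM with TNF-α, also overlapping, with an adjusted p of 0.779. The 95% intervals of the log2 change were −0.02 to 0.56 for IL6ST and −0.41 to 0.18 for IL6R, which do not show that either stayed the same.

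SOCS3, the gp130 feedback inhibitor (ENSG00000184557, chr17:78356778-78360077), read 10.5, 11.4 and 11.6 FPKM in medium and 14.0, 15.3 and 16.2 FPKM with TNF-α. Every TNF-α library was above every medium library, and the log2 fold change was 0.43 (SE 0.09, adjusted p = 0.0153). Without medium library 1, TNF-α library 2 or TNF-α library 3 its adjusted p was 0.0691, 0.0614 and 0.0736, the last the highest over all alternatives.

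**Figure D2:**
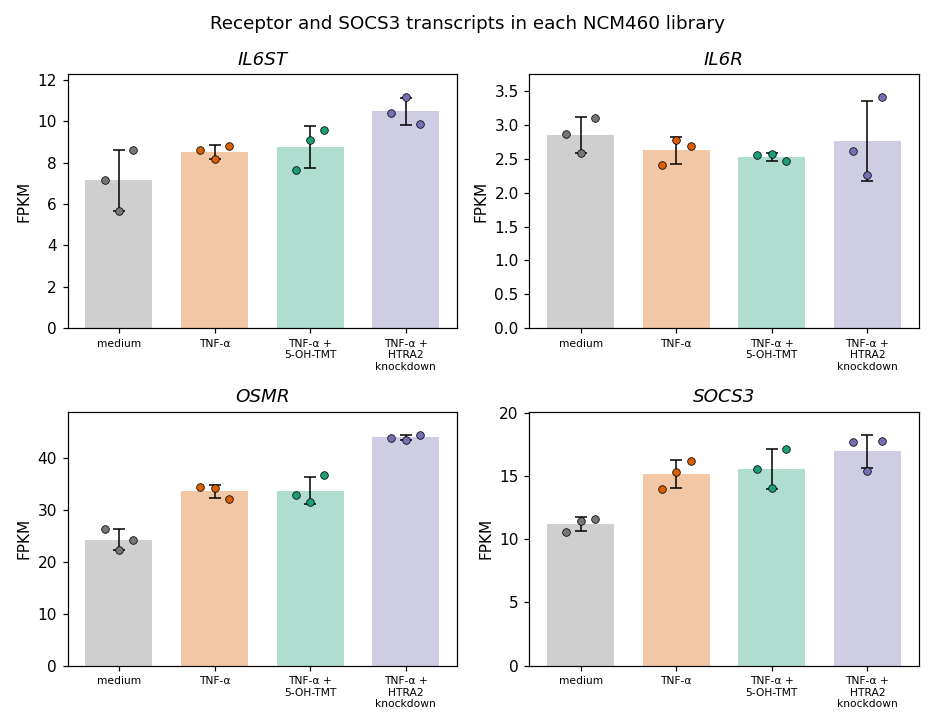
FPKM of IL6ST, IL6R, OSMR and SOCS3 in each library, drawn as for the cytokines (points are libraries, bars the mean, error bars 1 SD, n = 3). OSMR steps from 24.2 in medium to 33.6 with TNF-α and 43.9 with the knockdown, while IL6R lies between 2.26 and 3.41 in all 12 libraries.

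Adding 5-OH-TMT to TNF-α gave no call among the 10 genes in limma at an adjusted p under 0.05, and none by voom on the reads, where 0.0387% of all genes (7 of 18079) were called in limma. At an unadjusted p under 0.05 there were 2, LIF and CSF1, both higher, a share no larger than the 20.1% of all genes at that threshold. These were also the 2 with no overlap between the groups, against 16.3% of all genes that stood higher without overlap. None was at least 2-fold with an unadjusted p of at most 0.05, which 1.5% of all genes were. The comparison therefore did not resolve a change of these transcripts with 5-OH-TMT, in either direction.

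LIF read 17.002, 17.6 and 18.6 FPKM with 5-OH-TMT and TNF-α, above the 14.2 to 14.9 FPKM with TNF-α alone, a log2 difference of 0.29 with a 95% interval of 0.02 to 0.55 and an adjusted p of 0.226. LIF passed in the fit to these 2 groups alone (adjusted p = 0.0422), and over all alternatives its adjusted p ran from there to 0.405. CSF1 read 5.58, 5.38 and 6.99 FPKM, above the 4.09 to 4.63 FPKM with TNF-α, a log2 difference of 0.42 (0.13 to 0.71, adjusted p = 0.133).

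IL6 had 49, 57 and 74 reads, or 0.673, 0.775 and 0.994 FPKM, against 0.711 to 1.43 FPKM with TNF-α alone. The groups overlapped, and the log2 difference of −0.34 had an interval of −1.07 to 0.38 and an adjusted p of 0.589. CSF2 read 3.21, 3.22 and 5.09 FPKM, within reach of the widely spread TNF-α libraries (1.04 to 4.16 FPKM), with a log2 difference of 0.81 and an adjusted p of 0.257. The CSF2 difference was 1.29 without TNF-α library 3, the highest of its group, and 0.34 without TNF-α library 1, the lowest.

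The other 6 genes had log2 differences between −0.15 and 0.08. CSF3 had 26, 20 and 28 reads, inside the TNF-α range of 21 to 40 apart from 1 library. OSMR had a log2 difference of 0.0025 with an interval of −0.16 to 0.16, the narrowest of the 10, and SOCS3 0.03 with −0.16 to 0.23. The intervals were wider for IL11 (−0.46 to 0.62) and CSF3 (−0.70 to 0.41), so changes within those bounds could not be resolved with these libraries.

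**Figure D3:**
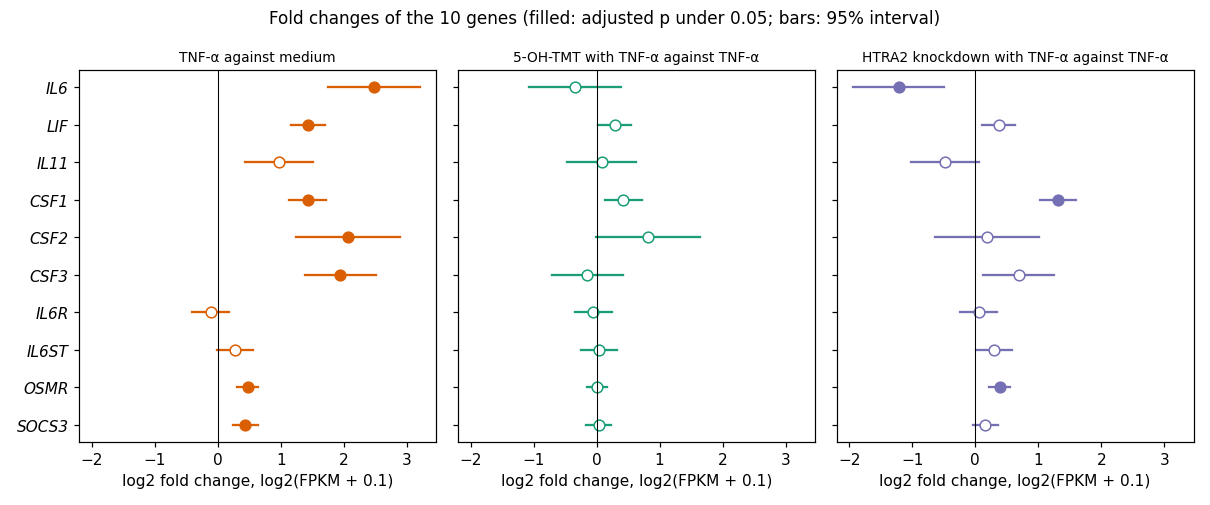
Log2 fold changes on the log2(FPKM + 0.1) scale for the 10 genes in 3 comparisons, with 95% intervals from the limma fit and filled points where the adjusted p was under 0.05. With TNF-α 7 points are filled, all to the right of 0, and with 5-OH-TMT none. In the knockdown panel CSF1 and OSMR are filled on the right and IL6 on the left. All 3 panels share the TNF-α libraries, which enter the left panel with the opposite sign.

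With HTRA2 knocked down in TNF-α-treated cells, CSF1 and OSMR rose and IL6 fell, so 3 of the 10 genes were called. This share is to be read against 17.4% of all genes called in that comparison, 9.35% higher and 8.08% lower. CSF1 and IL6 were also at least 2-fold apart with an unadjusted p of at most 0.05, as were 4.23% of all genes. In 6 of the 10 the groups did not overlap (5 higher, 1 lower), against 34% of all genes in either direction, and the median log2 fold change was 0.24 over the 10 and −0.0034 over all genes tested.

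CSF1 read 12.2, 9.88 and 11.2 FPKM in the knockdown libraries against 4.51, 4.09 and 4.63 FPKM with TNF-α alone. The lowest knockdown library was above 2 times the highest TNF-α library, and the log2 fold change was 1.31 (SE 0.13, adjusted p = 6.1e-05). It was called in all 9 alternatives with all libraries and all 6 that left one out, with values from 1.16 to 1.39. OSMR read 43.9, 43.5 and 44.5 FPKM against 32.2 to 34.4 FPKM, a log2 fold change of 0.39 (SE 0.07, adjusted p = 0.0039), and was likewise called in each of those alternatives.

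IL6 moved the other way. It had 38, 30 and 22 reads, or 0.509, 0.402 and 0.292 FPKM, in the knockdown libraries, all below the 54 to 92 reads of the TNF-α libraries and above the 2 to 14 of the medium libraries. The mean of 0.401 ± 0.109 FPKM was 0.370 times the mean of the TNF-α libraries, a log2 change of −1.22 (SE 0.33, adjusted p = 0.0256). The same TNF-α libraries enter the comparison with medium with the opposite sign, so the rise with TNF-α and this fall are not independent. The call was lost with a pseudocount of 0.01 (adjusted p = 0.0955), with no filter on low values (0.0645), without TNF-α library 2 (0.107) or 3 (0.0769) and without knockdown library 3 (0.0870), with the direction kept in each, and over all alternatives the adjusted p ran from 0.0091 to 0.107. Without knockdown library 2, CSF1 (1.39), OSMR (0.39) and IL6 (−1.23, adjusted p = 0.0495) were the 3 genes called.

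The other 7 genes did not pass. LIF read 18.4, 18.2 and 19.6 FPKM, above every TNF-α library, with a log2 difference of 0.37 and an adjusted p of 0.0584, and it passed in 4 of the alternatives, voom among them, with adjusted p from 0.0073 to 0.146 over all of them. CSF3 had 45, 60 and 48 reads, or 0.562, 0.749 and 0.593 FPKM, also above every TNF-α library (21 to 40 reads), with a log2 difference of 0.69 and an adjusted p of 0.0871. It passed in 2 alternatives, with adjusted p from 0.0359 to 0.313 over all of them. IL6ST read 10.4, 11.2 and 9.87 FPKM, above the 8.17 to 8.79 FPKM with TNF-α, with 0.29 and 0.153, and passed in 1 alternative (0.0461, up to 0.316 in the others).

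IL11 read 1.07, 0.696 and 0.801 FPKM in the knockdown, overlapping the TNF-α libraries, with a log2 difference of −0.48 and an adjusted p of 0.217. CSF2 read 2.57, 2.54 and 2.09 FPKM, inside the TNF-α range, with a difference of 0.18 (−0.64 to 1.01) that became −0.29 without TNF-α library 1. SOCS3 read 17.7, 15.4 and 17.7 FPKM, with 0.16 and an adjusted p of 0.261, and IL6R 2.61, 2.26 and 3.41 FPKM, with 0.05 and 0.833.

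The knockdown and 5-OH-TMT libraries, both with TNF-α, were also compared directly, without the TNF-α libraries. CSF1, CSF3 and OSMR were higher in the knockdown, 3 of the 10 genes, where 15.3% of all genes were called and 7.85% higher. CSF1 differed by 0.89 on the log2 scale (SE 0.13, adjusted p = 0.0014) and OSMR by 0.38 (SE 0.07, adjusted p = 0.0060). CSF3 differed by 0.83 (SE 0.26, adjusted p = 0.0476), with 45 to 60 reads against 20 to 28, but lost the call without any single library of the 2 groups (adjusted p from 0.0755 to 0.156). Without knockdown library 2, CSF1 (0.97) and OSMR (0.39) were the 2 genes called.

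IL6 was lower in every knockdown library (22 to 38 reads) than in every 5-OH-TMT library (49 to 74 reads), a log2 difference of −0.88 with an interval of −1.60 to −0.15 and an adjusted p of 0.0986. IL11 and CSF2 also lay lower without overlap, with log2 differences of −0.56 and −0.63 and adjusted p of 0.156 and 0.296, so that 7 of the 10 genes did not overlap, 4 higher and 3 lower, against 35.8% of all genes. On the log2(FPKM + 0.1) scale none of the 10 reached 2-fold with an unadjusted p of at most 0.05, which 3.19% of all genes did, although the mean FPKM of CSF3 was 2.03 times as high and that of IL6 0.492 times, and voom placed both past 2-fold. LIF differed by 0.08 (−0.18 to 0.35).

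The make-up of the cytokine transcripts, as shares of their summed FPKM, followed from these levels. The sum over the 6 ligands was 8.19 ± 1.56 FPKM in medium, 24.0 ± 2.11 with TNF-α, 29.95 ± 3.05 in the cells given 5-OH-TMT as well and 34.2 ± 1.503 in the knockdown (SD, n = 3). LIF was the largest part throughout, at 66.0%, 60.7%, 59.3% and 55.0% in the same order. CSF1 made up 19.6%, 18.4% and 19.9% in the first 3 groups and 32.4% ± 2.06 in the knockdown, where its lowest library (30.4%) lay above the highest of the others (21.9%). IL6 was 4.49% ± 1.39 with TNF-α and 1.17% ± 0.304 in the knockdown. These shares are a description and were not tested.

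**Figure D4:**
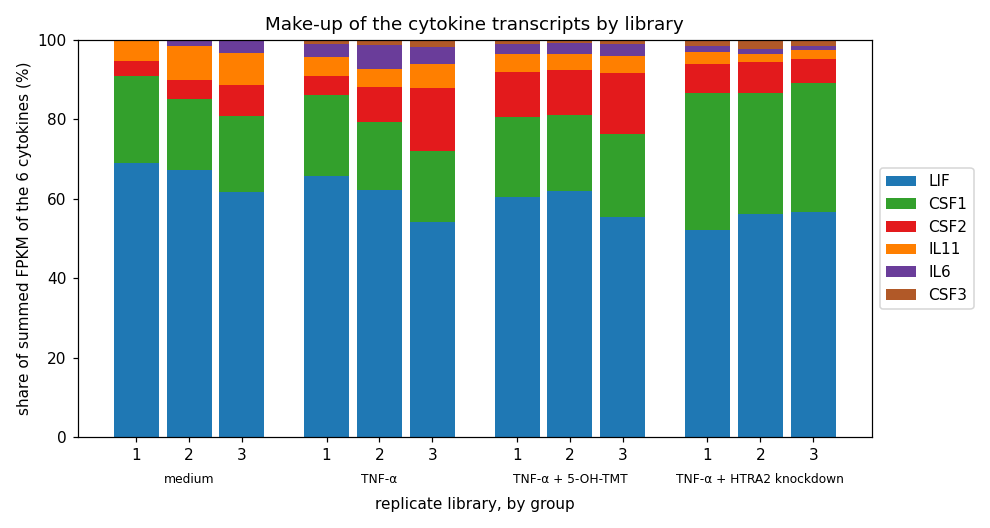
Shares of the summed FPKM of the 6 cytokine genes in each of the 12 libraries, in percent, stacked to 100%, with replicate numbers under the bars and groups named below. LIF fills more than 50% of every bar, and the CSF1 segment is 30.4% to 34.5% in the knockdown libraries against 17.1% to 21.9% in the others.

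The receptors through which these ligands would act were unequally expressed in the NCM460 cells. Beside IL6ST, IL6R and OSMR, LIFR had a mean of 2.61 FPKM in medium and CSF2RA, the GM-CSF-binding chain, 2.89, while IL11RA had 0.336. CSF3R, the G-CSF receptor, had at most 2 reads in any library, and CSF2RB, the signalling chain shared by GM-CSF, IL-3 and IL-5, at most 19. Of 14 other receptors of both families, 8 were tested. With TNF-α, where 3.22% of all genes were called higher, only IL27RA, a gp130 partner, rose (14.1 ± 0.294 to 24.3 ± 1.51 FPKM, log2 fold change 0.78, adjusted p = 0.00057). In the knockdown, where 9.35% of all genes were called higher, so were CSF1R and IL3RA. IL3RA had 4 to 6 reads in medium, 5, 2 and 2 with TNF-α, 9 to 11 with 5-OH-TMT and 29, 19 and 22 in the knockdown, and it passed the filter only through the groups where it is higher, so its call is no support. CSF1R, the receptor for CSF1, had 61, 62 and 45 reads in medium, 37, 26 and 41 with TNF-α, 45, 65 and 52 in the 5-OH-TMT libraries and 102, 117 and 119 in the knockdown libraries, a log2 fold change of 1.28 against TNF-α (adjusted p = 0.0013). CSF1R and IL3RA are typical of myeloid cells. CD14, the only one of the 6 leukocyte markers that was tested, was also higher in the knockdown than with TNF-α. It had 4 to 10 reads with TNF-α and 20, 21 and 50 in the knockdown (log2 fold change 1.41, limma adjusted p = 0.016). In medium CD14 had 14 to 33 reads, which the knockdown libraries overlapped. The list summed to 0.231 to 0.524 FPKM in medium, 0.0711 to 0.207 with TNF-α and 0.356 to 0.754 in the knockdown. CD68 had 0 to 6 reads with TNF-α and 1 to 5 in the knockdown. AIF1 was at 0 and PTPRC at or under 1 read in the 6 TNF-α and knockdown libraries. The part of such markers in the result was not tested.

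Of 12 other ligands 5 were tested. With TNF-α 2 rose and none fell, where 4.1% of all genes were called. In the knockdown 1 rose and none fell, where 17.4% of all genes were called. Against 5-OH-TMT 1 was higher and 1 lower, where 15.3% of all genes were called. EBI3, a subunit of IL-27, rose with TNF-α from 0.448 ± 0.0960 to 1.96 ± 0.0998 FPKM (log2 fold change 1.93, adjusted p = 0.00058) and again in the knockdown to 4.72 ± 0.767 FPKM (1.21, 0.0053). CLCF1, a ligand of the CNTF receptor, rose with TNF-α by 0.54 (adjusted p = 0.014) and was lower in the knockdown than with 5-OH-TMT by a log2 difference of −0.41 (adjusted p = 0.0265).

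All 15 transducers and feedback regulators examined were tested. Over all genes tested, 3.22% were called higher with TNF-α, and 9.35% were called higher and 8.08% lower in the knockdown. The median log2 fold changes over all genes were −0.0020 with TNF-α and −0.0034 in the knockdown. With TNF-α 4 rose and none fell (median log2 fold change 0.30), among them STAT5A by 2.39 (adjusted p = 2.2e-06), STAT3 by 0.47 (0.00033) and ADAM17, a protease that sheds IL-6 receptor, by 0.37 (0.025). In the knockdown 7 rose and 1 fell (median 0.42). STAT5A rose by a further 1.34 (adjusted p = 0.00013), SOCS1 by 0.97 (0.0011) and STAT3 by 0.46 (0.00020), with JAK1, ADAM10 and ADAM17 also higher, while SOCS2 fell by 0.52 (0.0098). STAT5A had 39, 41 and 34 reads in medium and 345, 258 and 287 with TNF-α, so its 3 medium libraries lay far under every other library.

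Of 17 genes known to respond to STAT3 or to belong to the acute phase, 14 were tested. Over all genes tested, 3.22% were called higher with TNF-α and 9.35% in the knockdown. The median log2 fold changes over all genes were −0.0020 and −0.0034. With TNF-α 6 rose and none fell (median 0.27): SAA1, serum amyloid A, by 3.65 (adjusted p = 0.00018), LRG1 by 1.55 (2.3e-05), BCL3 by 1.30 (0.00021), CEBPB by 0.47 (0.017), MCL1 by 0.46 (0.0080) and PIM1 by 0.30 (0.0495). In the knockdown 9 rose and none fell (median 0.40). SAA1 read 53.5, 53.3 and 57.6 FPKM against 10.4, 6.77 and 16.5 with TNF-α (log2 fold change 2.37, adjusted p = 0.0019). SERPINA3 rose by 1.24 (0.0079) and LRG1 by 0.84 (0.0012). SERPINA3 is among the 9, with a knockdown mean of 0.419 FPKM and at most 0.157 FPKM in any other group. Only its knockdown level took it past the filter of 0.1 FPKM, so this call lends no support. Several of these genes are also known to respond to TNF-α through NF-κB, so the list does not measure STAT3 alone.

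All 11 regulators of cytokine mRNA were tested. With TNF-α 2 rose and none fell, where 4.1% of all genes were called. In the knockdown 2 rose and 2 fell, where 17.4% of all genes were called. Against 5-OH-TMT 2 were higher and 2 lower, where 15.3% of all genes were called. ZC3H12A, which encodes Regnase-1, an endonuclease that cleaves IL6 mRNA, read 18.8, 16.8 and 21.2 FPKM with TNF-α and 50.5, 40.7 and 46.7 FPKM in the knockdown, a log2 fold change of 1.28 (adjusted p = 6.3e-05). NFKBIZ, which encodes a cofactor for IL6 transcription, rose in the knockdown by 0.98 (0.0021), and ZFP36L2 and HNRNPD, which bind AU-rich elements, fell by 0.48 (0.0037) and 0.31 (0.047). With TNF-α, ZC3H12A rose by 1.01 (0.00061) and ZFP36L2 by 0.39 (0.033), so ZFP36L2 was called in opposite directions in these 2 comparisons, which share the TNF-α libraries. Against 5-OH-TMT the knockdown was higher in ZC3H12A and NFKBIZ and lower in KHSRP and ZFP36L2. In none of these 5 lists was a gene called with 5-OH-TMT against TNF-α by limma; at an unadjusted p under 0.05 there were 11 of the 53 tested, near the 20.1% of all genes. Without knockdown library 2, CEBPD lost its call against TNF-α and CSF2RA, TYK2, PTPN11 and BCL3 gained one. Against 5-OH-TMT, CLCF1, EBI3, CSF1R, SERPINA3, ZFP36L2 and KHSRP lost theirs and BCL6 gained one. That alternative was chosen after seeing the data.

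**Figure D5:**
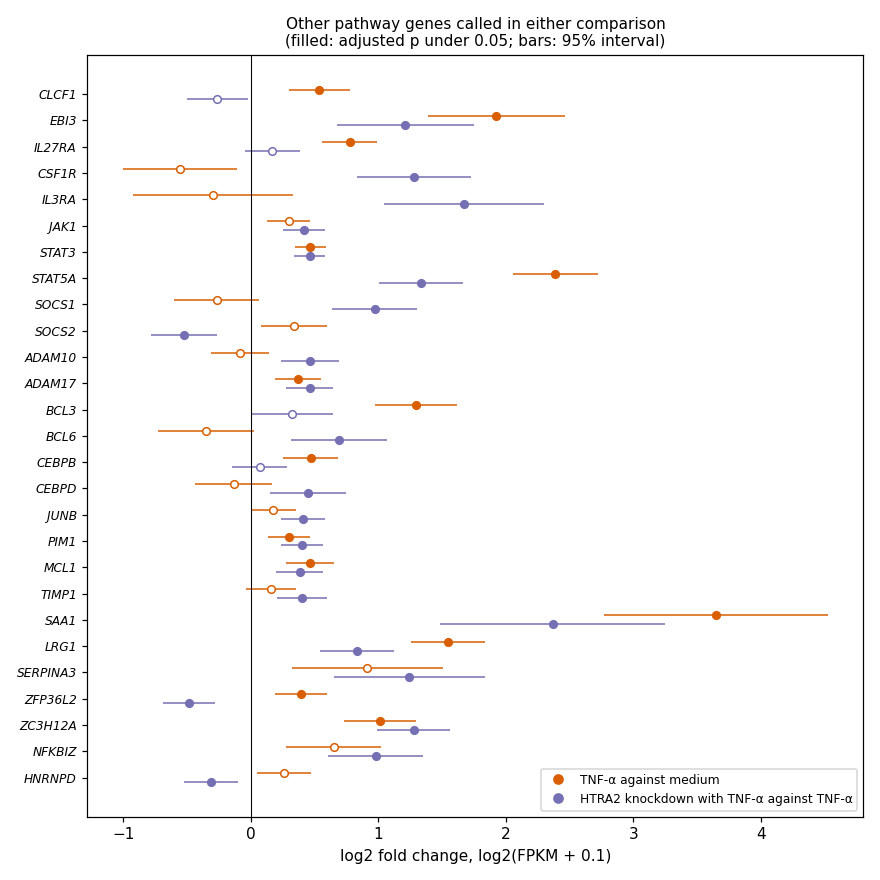
Log2 fold changes, with 95% intervals, of other pathway genes called in TNF-α against medium (orange) or in the knockdown against TNF-α (violet), filled where the adjusted p was under 0.05. SAA1, STAT5A, LRG1, EBI3 and ZC3H12A are filled to the right in both, and ZFP36L2 is to the right for TNF-α and to the left for the knockdown; both comparisons share the TNF-α libraries.

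The genes whose pattern over the 12 libraries was nearest to each cytokine were found among 11185 genes with a mean of at least 1 FPKM, by the root mean square difference of log2(FPKM + 0.1) after each gene was centred. CSF1 was nearest to C3, complement component 3 (0.19), and ZC3H12A (0.19), both highest in the knockdown. LIF was nearest to NFKBIE (0.15) and CD83 (0.15), IL11 to IL24 (0.24) and PDLIM2 (0.25), and CSF3 to LRG1 (0.26) and OLR1 (0.27). IL6 and CSF2 had no neighbour closer than 0.50 (RRAD) and 0.48 (KRT87P). The nearest to OSMR, SOCS3, IL6R and IL6ST were PDE8A (0.06), TMEM189 (0.07), FAM206A (0.07) and NEDD4 (0.08). The measure describes likeness over these libraries and is no test.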

How the data were processed

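Poly(A) RNA of NCM460 cells was sequenced in 12 libraries, and the authors deposited a table of FPKM values with each gene's length. The submitters' processing notes name CASAVA 1.8, HISAT2 2.0.4, HTSeq 0.9.1 and hg38. Coordinates of the 10 genes were those of GENCODE 29 for 10 of 10. Whole reads were recovered from FPKM, gene length and each library's step (100% whole within 0.1 read). limma 3.58.1 in R 4.3.3 (lmFit, eBayes with trend) was fitted to log2(FPKM + 0.1) of 18079 genes whose FPKM averaged 0.1 or more, with 1 mean for each of 4 groups and 8 residual degrees of freedom. Tests were two-sided, with Benjamini-Hochberg adjustment over all genes. The pseudocount understates fold changes of low genes. Replicate pairs differed by more than counting error (chi-squared per degree of freedom 6.87 to 40.8, the 2 largest with knockdown library 2). The fit was tested on simulated data. An exact permutation test of 3 against 3 cannot go below p = 0.1. The members and lists were chosen with earlier results of these data known. Named were all 10 genes, HTRA2, up to 6 called genes per list and contrast by size of change, and nearest patterns; marker genes, IL11RA, LIFR, CSF2RA, CSF2RB and CSF3R were named for their levels after these were seen. Alternatives were other pseudocounts (1, 0.01), other filters, median-of-ratios scaling, a fit to 2 groups, no trend, the replicate number as a block, voom on reads, and each library left out in turn. 1 gene of the pathway lists was counted but is not reported by name here.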

Additional observations from a re-analysis of the deposited data

How the results depend on the processing

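Over the log2 fold changes of the 10 genes in 4 comparisons, 544 alternative values kept their direction and their side of the threshold, 18 lost a call, 10 gained one and 16 changed sign. The sign changes were all of values without a call. With 5-OH-TMT, voom gave −0.00045 for IL6ST, −0.032 for OSMR and −0.00043 for SOCS3, and values with 1 library left out ran from −0.022 to 0.27 for IL11, −0.32 to 0.036 for CSF3, −0.032 to 0.13 for IL6ST, −0.059 to 0.049 for OSMR and −0.037 to 0.11 for SOCS3. In the knockdown against TNF-α they ran from −0.29 to 0.66 for CSF2 and −0.10 to 0.18 for IL6R, and against 5-OH-TMT from −0.053 to 0.23 for IL6R. The count of genes at least 2-fold with TNF-α was 3 in place of 5 with a pseudocount of 1, or with a filter at a mean FPKM of 1, which leaves out IL6, IL11 and CSF3. The fit to the 2 groups compared called 1 gene (LIF) for 5-OH-TMT and 5 for the knockdown, and a pseudocount of 1 also called 5 there. In the knockdown 1 gene was at least 2-fold with a pseudocount of 1 and with the filter at 1. Against 5-OH-TMT voom found 2 at least 2-fold, IL6 and CSF3. With 1 library left out, the count at least 2-fold ran from 0 to 1 for 5-OH-TMT (CSF2, without TNF-α library 3) and from 0 to 1 for the knockdown against 5-OH-TMT (CSF1 without 5-OH-TMT library 3, IL6 without knockdown library 1). Correlations of the deviations of same-numbered libraries ran from −0.366 to 0.151, with 5 of 18 pairs above 0.1. Differently numbered libraries were not compared, so these values cannot tell whether the numbers pair the libraries. With the replicate block the limma adjusted p of CSF3 in the knockdown against 5-OH-TMT was 0.0662, and the block changed no other call among the 10 genes. Over all genes, calls with TNF-α numbered 742 and 392 in the fit to the 2 groups; calls for 5-OH-TMT numbered 7, and 911 in that fit, 236 by voom, 127 with the filter at 1, 3 with a pseudocount of 1 and 1 with the block or without a trend. The genes at least 2-fold numbered 494, 271, 764 and 576 in the 4 comparisons, 91, 14, 155 and 101 with a pseudocount of 1, and 164, 32, 259 and 185 with the filter at 1. The cause of these shifts was not tested. With at most 144 reads in a library, IL6, CSF2 and CSF3 had TNF-α libraries that varied by 33.1%, 65.5% and 31.3% (coefficient of variation), where counting error gives 11.4%, 12.2% and 18.8%, so depth is not the only limit on them.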

Other observations

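Several ligands and receptors of the same families were close to absent from the counts. OSM, the ligand of OSMR, had 2 reads in 1 medium library and 0 in the other 11, IL31 and CNTFR had 0 in all 12, and IL27, IL3, IL5 and FLT3LG had at most 6 reads in a library. KIT and FLT3, growth factor receptors of blood progenitors, were at 0 throughout, as was LBP among the acute-phase genes. IL34, the other ligand of the CSF1 receptor, had 0 to 5 reads in the libraries without the knockdown and 7, 12 and 10 reads in the knockdown libraries, with an adjusted p against TNF-α of 0.0617 when limma was run on unfiltered genes. CSF2RB had 0 to 6 reads in the libraries without the knockdown and 10, 11 and 19 with it (adjusted p = 0.0744 in the same limma fit). These counts are too low for a fold, and the intervals they allow cover counting error only.

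Among markers of other cell types, COL1A1, a fibroblast collagen, rose in the knockdown from 1.17 ± 0.177 to 2.89 ± 0.308 FPKM (log2 fold change 1.23, adjusted p = 0.00013 by limma), and CDH5, an endothelial cadherin, rose with TNF-α from 0.335 ± 0.0378 to 1.32 ± 0.140 FPKM (1.71, 0.00011) and in the knockdown to 2.79 ± 0.688 FPKM (0.997, 0.0024). PECAM1, the other endothelial marker tested, was not called in any of the 4 comparisons by limma (0.148 FPKM in medium, 0.112 with TNF-α and 0.158 in the knockdown), VWF read 0.0778, 0.0573 and 0.0860 FPKM in the same groups, and KDR had 0 reads in all 12 libraries. Of the other fibroblast markers, COL1A2 had at most 10 reads in a library, PDGFRB 6, LUM 3 and DCN 0.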
